A study of Mus musculus with 10 samples.

Results

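The comparison of *Bbs5-/-* with WT hypothalamus at 5 weeks of age rested on 5 of the 10 libraries of the series, chosen by their genotype labels. They were WT libraries E1 and E3 and *Bbs5-/-* libraries E4, E5 and E6, with 2 and 3 mice in the groups. Values for single libraries are given in that order, those of E1 and E3 first and those of E4, E5 and E6 after "against" or the word *Bbs5-/-*. The *Bbs5-/-* mice carried a *lacZ*-tagged allele that knocks out *Bbs5* at exons 4 and 5 (*Bbs5 tm1b(EUCOMM)Wtsi*) on both chromosomes and in all cells. They were bred from heterozygotes on a C57BL/6J background, and the WT mice were littermate controls. All mice were untreated males. Core hypothalamic tissue was taken with a micropuncher, so that each library mixes the RNA of neurons, glia, vessels and any adjoining tissue, although the labels give the cell type as neuronal. The description of the extraction puts every mouse at 12 weeks, and the ages used here are those of the genotype labels. The comparison asks which genes differ between the genotypes before the mice become obese.

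BBS5 is 1 of the 8 subunits of the BBSome, a coat-like complex that carries membrane proteins, G protein–coupled receptors among them, along and out of the primary cilium, the antenna-like projection of most neurons. Its loss causes Bardet-Biedl syndrome, a ciliopathy with obesity, retinal degeneration and kidney disease. In the hypothalamus, neurons that make agouti-related peptide and neuropeptide Y promote feeding, neurons that make pro-opiomelanocortin oppose it, and both respond to leptin.

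The WT libraries held 18013161 counts (E1) and 18699158 counts (E3), and the *Bbs5-/-* libraries held 20319471 (E4), 20010236 (E5) and 19866578 (E6). The floor of detection, 3 counts, lay between 0.148 and 0.167 CPM, here scaled to the library's total without the TMM factor that the CPM of genes carry. The largest count in each of the 5 libraries was that of *Rn45s*, the precursor of ribosomal RNA, with 1.78% and 2.26% of all counts in WT and 2.54%, 1.68% and 1.47% in *Bbs5-/-*, so that the genotypes overlapped. Hypothalamic identity was checked with 39 transcription factors of this region, all of which were measured. They summed to 1224 and 1199 CPM in WT against 1206, 1257 and 1225 CPM in *Bbs5-/-* libraries. The genes listed for thalamus summed to 930.5 and 901 CPM in WT against 995, 871 and 1088 CPM in *Bbs5-/-*, and those for cortex, hippocampus and amygdala to 1033 and 1063 CPM in WT against 999, 998 and 1007 CPM in *Bbs5-/-*. Genes that these regions share with the hypothalamus, or tissue of these regions, were thus present in all 5 libraries.

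The WT libraries stood further apart from each other than the *Bbs5-/-* libraries did. Between E1 and E3, 134 genes differed by more than 2-fold in CPM plus 1, against 37, 40 and 61 genes for the 3 pairs of *Bbs5-/-* libraries and 89 to 169 genes for the pairs of unlike genotype. Library E1 held *Ttr*, transthyretin of the choroid plexus, at 382 CPM, while E3 held 2.08 CPM and the *Bbs5-/-* libraries 2.34, 3.80 and 1.37 CPM. The 18 choroid plexus genes, of which *Enpp2* was the most abundant over the 5 libraries, summed to 682 and 251 CPM in WT against 206, 215 and 225 CPM in *Bbs5-/-*. Library E3 in turn had the most RNA of leptomeningeal fibroblasts, the cells of the membranes around the brain, although the methods describe these as removed in dissection. Those 30 genes, led by *Ptgds*, summed to 1696 and 2689 CPM in WT against 1044, 1177 and 1041 CPM in *Bbs5-/-*. Fewer cells of a type and less RNA per cell cannot be told apart in these libraries, and the part of these tissue differences in the results below was not tested.

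*Bbs5* was the 1 gene of 16023 tested (0.00624%) past an adjusted p of 0.05 in edgeR's quasi-likelihood test. Across all genes tested, 2829 (17.7%) had every *Bbs5-/-* library above both WT libraries and 2916 (18.2%) had every *Bbs5-/-* library below them. The gene lists with the largest share below both WT libraries were those of leptomeningeal fibroblasts (23 of 30 genes), tanycytes (11 of 18), endothelium (12 of 20) and astrocytes (13 of 22). Those with the largest share above both WT libraries were the cytosolic ribosomal proteins (63 of 79), the mitochondrial respiratory chain (55 of 81) and the mitochondrial ribosomal proteins (42 of 77). Of the genes whose genotypes did not overlap, 1260 higher genes (7.86% of all tested) and 1384 lower genes (8.64%) also had an unadjusted p under 0.05. Most of these differences were small. The median log2 fold change was 0.25 among the higher and -0.31 among the lower genes, and 1087 of the former and 1062 of the latter were under 0.5 in size. Over all genes tested the median was -0.0049, with 7860 genes higher and 8163 lower. For every gene but *Bbs5*, "higher" and "lower" describe the values of these libraries and not a call.

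The count past the threshold depended on the test and on the libraries used. DESeq2's likelihood ratio test called 392 of 13537 genes (2.9%), 176 higher and 216 lower, and in 391 of these the genotypes did not overlap. With edgeR, 263 genes passed without the filter on low counts and 0 with the 12-week libraries in the same fit, where 523 had an unadjusted p under 0.05. Leaving out WT library E1 gave 77 genes and leaving out E3 gave 160, but with 1 WT library left the spread in these fits comes from *Bbs5-/-* libraries alone. Without *Bbs5-/-* library E5 there were 15 and without E6 3. Without E4 *Myoc* passed in place of *Bbs5*. The genes without overlap numbered 5089 above and 4966 below when E1 was left out, and 4879 and 5135 when E3 was, since 1 WT library then stood alone. The genes next to *Bbs5* by p, from *Lhfp* to *Otof*, shared an adjusted p of 0.0560 in edgeR's test.

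*Bbs5* was at 13.8 and 14.2 CPM in WT libraries against 5.37, 4.89 and 4.66 CPM in *Bbs5-/-* libraries. The WT mean was 13.97 ± 0.293 CPM (SD, n = 2), the *Bbs5-/-* mean 4.97 ± 0.361 CPM (SD, n = 3), and the gene fell, with a log2 fold change of -1.49 ± 0.13 (SE; adjusted p = 0.00894, edgeR). The adjusted p was 0.0517 without E4 and 0.0536 in the fit with all 4 groups, the highest over the alternatives, and 2.71e-11, the lowest, with DESeq2. These counts are per gene and cannot be placed on its exons, so where in the transcript the reads left in *Bbs5-/-* libraries lie is not known. In the annotated transcript *Bbs5-201* (GENCODE M21, mouse build GRCm38), which has 12 exons and 1468 bases, exons 4 and 5 lie at chr2:69654063-69654112 and chr2:69654246-69654373 on the plus strand and are coding throughout. The sources do not say which transcript numbers the exons of the allele. Both are shown as the exons at which the methods place the knockout allele, together 178 bases or 12.1% of this transcript, a length that is not a multiple of 3.
Exon 4: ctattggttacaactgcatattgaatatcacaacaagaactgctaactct
Exon 5: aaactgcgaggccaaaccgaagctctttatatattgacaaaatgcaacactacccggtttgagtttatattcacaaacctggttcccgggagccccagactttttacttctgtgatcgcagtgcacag

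Of the 8 BBSome subunits, 6 had a positive log2 fold change and 2, *Bbs5* and *Bbs1*, a negative one. *Bbs1*, *Bbs2*, *Bbs7* and *Bbs9* overlapped between the genotypes. *Bbs4*, the most abundant, was at 68.6 and 76.4 CPM in WT libraries against 79.8, 77.5 and 79.3 CPM in *Bbs5-/-* libraries. *Ttc8*, which encodes BBS8, was at 28.6 and 27.6 against 35.5, 32.4 and 29.1 CPM, and *Bbip1*, which encodes BBS18, at 40.6 and 39.5 against 41.7, 43.3 and 41.7 CPM. In these 3, a larger share than among all genes, every *Bbs5-/-* library was above both WT libraries, with log2 fold changes of 0.12, 0.20 and 0.077 and adjusted p values of 0.400, 0.319 and 0.623. That of *Bbs4* was 0.051 without E1 and 0.20 without E3, and that of *Ttc8* 0.13 without E4. At 12 weeks *Bbs5* did not separate the genotypes and *Bbs4* did. Libraries B1 and B3 (WT) held *Bbs5* at 15.2 and 13.4 CPM against 16.3, 13.5 and 12.01 CPM in B4, B5 and B6, which are labelled *Bbs5-/-*. For *Bbs4* the values were 66.4 and 60.4 CPM (B1, B3) against 0.708, 29.4 and 0.360 CPM (B4, B5, B6), with B6 the closest to the floor. At 5 weeks the labels and the targeted gene were in accord, and *Bbs4* was at 68.6 CPM or more in all 5 libraries.

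36 annotated genes lie within 1 Mb of *Bbs5* on chromosome 2 in the RefSeq annotation of GRCm38.p6, and 18 of them were tested. 9 were higher and 9 lower, none passed the threshold while 4 had an unadjusted p under 0.05 (edgeR), and 4 lay above and 1 below both WT libraries in every *Bbs5-/-* library, none of these shares far above that of all genes, of which 2729 had an unadjusted p under 0.05. *Ppig*, a nuclear cyclophilin, was at 136 and 122 CPM in WT libraries against 154, 168 and 163 CPM in *Bbs5-/-* libraries (log2 fold change 0.33 ± 0.069). *Erich2* was at 2.11 and 2.51 against 3.68, 5.19 and 3.34 CPM (log2 fold change 0.82 ± 0.26), and *Ubr3*, a ubiquitin ligase, at 90.7 and 100.02 against 83.3, 88.3 and 83.5 CPM (log2 fold change -0.17 ± 0.068; -0.093 without E3). *Nnt*, a mitochondrial transhydrogenase that is partly deleted in C57BL/6J but not in C57BL/6N mice, was at 33.2 and 33.7 CPM in WT libraries against 27.6, 28.2 and 26.4 CPM in *Bbs5-/-* libraries, and *Cyfip2*, another gene that differs between these substrains, at 361 and 397 against 334, 303 and 336 CPM. Neither is near *Bbs5*, and gene counts do not show which allele was present. Of 12 genes listed together as checks of substrain and sex, 7 were higher and 5 lower. 2 lay above and 4 below both WT libraries, against 17.7% and 18.2% of all genes.

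Of 32 genes for the ciliary membrane and the transition zone, the gate at the base of the cilium, 25 were higher in *Bbs5-/-* mice, 10 lay above both WT libraries and 1 below, against 17.7% and 18.2% of all genes, with a median log2 fold change of 0.070 (0.034 without E5). Of the 32, 3 lay above with an unadjusted p under 0.05 (edgeR), against 7.86% of all genes. Their sum, 2157 and 2272 CPM in WT against 2387, 2449 and 2220 CPM in *Bbs5-/-*, overlapped between the genotypes. *Tctn1*, a transition zone protein needed for hedgehog signaling, was at 45.2 and 47.02 CPM in WT libraries against 57.4, 59.6 and 52.2 CPM in *Bbs5-/-* libraries (log2 fold change 0.29 ± 0.077). *Rabl2*, a small GTPase that binds intraflagellar transport trains, was at 46.9 and 49.4 against 55.2, 61.9 and 53.4 CPM. The genotypes did not overlap for either gene, and their adjusted p values were 0.125 and 0.183 (edgeR). The 25 intraflagellar transport genes, which move cargo along the axoneme, were even, 13 higher and 12 lower, with 3 above and 4 below both WT libraries. *Kif3a*, a subunit of the motor for anterograde transport, was at 405 and 379 CPM in WT libraries against 420.3, 440.2 and 431 CPM in *Bbs5-/-* libraries, while *Kif3c*, with which it can pair, was at 233 and 225 against 209, 203 and 208 CPM.

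Receptors and an accessory protein listed for the cilium were even. Of 20 tested, 10 were higher and 10 lower. *Sstr3*, the somatostatin receptor used to mark neuronal cilia, was at 17.3 and 16.6 CPM in WT libraries against 20.5, 20.01 and 23.01 CPM in *Bbs5-/-* libraries, above WT in each (log2 fold change 0.32 ± 0.10, adjusted p = 0.167). Of the 20, 2 lay above and 0 below both WT libraries, shares under the 17.7% and 18.2% of all genes. In the hedgehog pathway, which mammals run through the cilium, 10 of 20 genes were higher, 4 above and 2 below both WT libraries, shares near and under those of all genes. *Gli1*, the transcription factor that is itself a target of the pathway, was at 26.04 and 23.6 CPM in WT libraries against 33.5, 36.6 and 32.9 CPM in *Bbs5-/-* libraries. The lowest *Bbs5-/-* value exceeded the highest WT value by more than the range within either genotype. Its log2 fold change was 0.47 ± 0.089 (adjusted p = 0.0876). *Ihh*, a ligand, was low, at 0.222 and 0.427 against 0.746, 0.790 and 1.01 CPM, and the transducer *Smo* was at 42.2 and 46.4 against 41.5, 41.5 and 40.03 CPM, below WT in all *Bbs5-/-* libraries. Motile cilia, which ependymal cells use to move cerebrospinal fluid, had 27 genes tested, 17 of them higher. They summed to 466 and 559 CPM in WT against 496, 636 and 530.1 CPM in *Bbs5-/-* libraries, which overlapped. *Rsph1*, a radial spoke protein, was at 22.3 and 27.2 against 28.3, 36.5 and 33.7 CPM, *Rsph9* at 38.03 and 38.01 against 42.1, 43.4 and 43.98 CPM and *Sntn*, of the ciliary tip, at 1.55 and 3.79 against 3.88, 4.99 and 5.47 CPM. Only these 3 of the list lay above both WT libraries, a share below that of all genes, and E1 had the lowest value for *Sntn* and *Rsph1*.

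In leptin and insulin signaling, the leptin receptor and a docking protein of the insulin receptor were lower. *Irs2*, the docking protein of the insulin receptor that also carries leptin's signal to phosphoinositide 3-kinase, was at 19.3 and 18.8 CPM in WT libraries against 11.9, 11.9 and 12.5 CPM in *Bbs5-/-* libraries. The values within each genotype were close together, and the log2 fold change was -0.65 ± 0.10 (adjusted p = 0.0612). *Lepr*, the leptin receptor, was at 6.55 and 9.01 against 4.82, 5.73 and 5.32 CPM (log2 fold change -0.56 ± 0.18, adjusted p = 0.175; -0.31 without E3), and *Foxo3*, a transcription factor that insulin signaling keeps out of the nucleus, at 6.11 and 6.18 against 4.67, 4.35 and 4.36 CPM (log2 fold change -0.46 ± 0.16). Of the 27 genes of this list, 21 were lower, 5 without overlap, and 1 was above both WT libraries without overlap, the former share near and the latter under that of all genes. The median was -0.054. *Lepr* and *Irs2* are also made by cells of the vessels, meninges and astrocytes or tanycytes, whose genes were lower too, and the part of those cells was not tested. Among 42 appetite receptors, 8 lay below both WT libraries and 1 above, the former near the share of all genes. *Ntrk2*, the receptor of brain-derived neurotrophic factor and the most abundant of the list, was at 619 and 687 against 573, 539 and 527 CPM (log2 fold change -0.26 ± 0.066), and *Mc3r*, a melanocortin receptor, at 9.44 and 9.97 against 8.40, 7.86 and 7.35 CPM (log2 fold change -0.30 ± 0.13).

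Neuropeptide genes lay on both sides in shares close to those of all genes. *Agrp*, the melanocortin antagonist of the arcuate nucleus, was at 16.8 and 13.6 CPM in WT libraries against 8.65, 10.1 and 4.16 CPM in *Bbs5-/-* libraries (log2 fold change -0.99 ± 0.37, adjusted p = 0.275). *Npy*, made by the same neurons, was at 90.99 and 67.7 against 47.5, 57.6 and 33.7 CPM (log2 fold change -0.78 ± 0.28, adjusted p = 0.286). For both, E6 was the lowest of the 3 *Bbs5-/-* libraries. *Pomc*, of the opposing neurons, was at 129.9 and 226 against 140.3, 147 and 84.2 CPM and overlapped. *Crh*, the releasing hormone of the stress axis made in the paraventricular nucleus, was at 3.22 and 3.52 CPM in WT libraries against 7.76, 4.10 and 10.4 CPM in *Bbs5-/-* libraries, a log2 fold change of 1.13 ± 0.39 (adjusted p = 0.232) with E5 closest to WT and E6 highest. *Grp*, gastrin-releasing peptide, was at 5.16 and 5.12 against 7.16, 6.32 and 8.21 CPM. Of the 44 genes tested, 7 lay above and 8 below both WT libraries. The next 6 genes, also of this list, were chosen after their values were seen. *Trh*, which drives the thyroid axis, was at 125 and 199 CPM in WT libraries against 214, 266 and 270.3 CPM in *Bbs5-/-* libraries, and *Sst*, somatostatin, at 285 and 373 against 394, 435 and 388 CPM. The prohormone convertases *Pcsk1*, at 34.1 and 32.3 against 26.6, 22.9 and 23.5 CPM, and *Pcsk2*, at 229 and 210.2 against 205, 178 and 195 CPM, and the granule protein *Scg2*, at 612 and 528 against 475, 438 and 453 CPM, were lower in every *Bbs5-/-* library. *Cartpt*, of arcuate and other neurons, was at 186 and 161 against 158, 133 and 115 CPM.

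Transcription factors of the hypothalamus were about even as a list, with members in both directions. *Tbx3*, of the arcuate nucleus and its tanycytes, was at 27.4 and 30.3 CPM in WT libraries against 21.2, 18.9 and 11.5 CPM in *Bbs5-/-* libraries (log2 fold change -0.75 ± 0.26). *Nkx2-4*, of the ventral hypothalamus, was at 10.8 and 6.88 against 6.81, 4.79 and 4.71 CPM, and *Nkx2-1*, its close relative, which was named after its values were seen, at 88.8 and 53.96 against 47.5, 48.8 and 33.2 CPM. The last 2 were highest in E1. *Dlx5*, of GABAergic neurons, was at 13.4 and 17.4 CPM in WT libraries against 20.7, 24.2 and 21.2 CPM in *Bbs5-/-* libraries (log2 fold change 0.51 ± 0.13), and *Dlx1*, at 46.96 and 63.8 against 64.8, 85.1 and 74.2 CPM, and *Dlx6*, at 10.4 and 14.6 against 16.8, 19.5 and 17.03 CPM, both named after their values were seen, were above WT as well. *Lhx9* was at 1.61 and 1.92 against 3.53, 2.87 and 4.41 CPM. *Gbx2*, which marks the developing thalamus, had the largest positive log2 fold change of the genes named by size, 2.53 ± 0.81 (adjusted p = 0.215), with 0.389 and 0.533 CPM in WT libraries against 2.14, 1.04 and 4.92 CPM in *Bbs5-/-* libraries. *Zic4*, also of the thalamus and septum, was at 3.77 and 7.94 against 10.7, 14.6 and 13.2 CPM (log2 fold change 1.13 ± 0.31; 0.70 without E1 and 1.76 without E3). *Gbx2* rested on few reads, 7 and 10 counts in WT against 43, 21 and 97 in *Bbs5-/-* libraries. The 17 thalamic genes had a median of 0.25 (0.12 without E6), with 13 higher and 3 above both WT libraries, a share close to that of all genes, while their sum, led by *Calb2* at 277 and 320.1 against 372, 305 and 404 CPM, overlapped between the genotypes. Of the hypothalamic transcription factors 6 lay above and 4 below both WT libraries, both under the shares of all genes. Whether the punches took the same share of each nucleus was not tested.

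Astrocyte genes were lower as a group. 19 of 22 were lower, 13 of them without overlap and 1 higher without overlap, against 18.2% and 17.7% of all genes. The median log2 fold change was -0.24. *Aqp4*, the water channel of astrocyte endfeet around vessels, was at 112 and 105 CPM in WT libraries against 74.4, 62.1 and 72.9 CPM in *Bbs5-/-* libraries (log2 fold change -0.64 ± 0.084, adjusted p = 0.0560). *Gfap*, the intermediate filament that marks reactive astrocytes, was at 254 and 356 against 133, 176 and 129 CPM (log2 fold change -1.06 ± 0.22, adjusted p = 0.149), so that the highest *Bbs5-/-* library was still below the lowest WT library. *Clu*, the secreted chaperone clusterin, was at 694 and 722 against 579.8, 542 and 533 CPM (log2 fold change -0.36 ± 0.060), and *Gja1*, connexin 43, at 219.7 and 235 against 186, 164 and 186 CPM (log2 fold change -0.35 ± 0.071). The list summed to 9085 and 9343 CPM in WT against 8209.7, 8166 and 8331 CPM in *Bbs5-/-*, 30.4% of it from *Apoe* on average. Without WT library E1 the median was -0.15. The glutamate transporters *Slc1a2*, at 914 and 806 against 750.3, 695 and 719.8 CPM, and *Slc1a3*, at 350.2 and 412 against 329, 322 and 321 CPM, and the inward rectifier *Kcnj10*, at 502 and 429 against 372, 317 and 348 CPM, are named after their values were seen and were lower in every *Bbs5-/-* library.

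Tanycytes, the radial glia that line the ventricle of the hypothalamus and carry hormones between blood, cerebrospinal fluid and the arcuate nucleus, had 17 of 18 genes lower, with a median of -0.49. *Gpr50*, an orphan receptor of the melatonin receptor family, was at 15.99 and 16.8 CPM in WT libraries against 10.4, 9.29 and 6.84 CPM in *Bbs5-/-* libraries (log2 fold change -0.89 ± 0.16, adjusted p = 0.0876). *Dio2*, the deiodinase that makes active thyroid hormone, was at 7.77 and 5.38 against 3.23, 4.30 and 4.31 CPM (log2 fold change -0.74 ± 0.22; -0.44 without E1). *Tgfb2* was at 26.4 and 16.2 against 13.8, 10.9 and 14.3 CPM and *Frzb*, a secreted Wnt antagonist, at 5.38 and 6.98 against 2.73, 4.50 and 3.85 CPM. None of these overlapped, and E1 was the highest for *Dio2* and *Tgfb2*. Summed, the list stood at 524 and 539.8 CPM in WT against 418, 434 and 395 CPM in *Bbs5-/-*, with *Prdx6*, which is not particular to tanycytes, the most abundant. Without E6 the median was -0.32.

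Genes that handle thyroid hormone and retinoic acid, several of them made by tanycytes or meninges, were lower too. 22 of 24 were lower, 9 without overlap, against 18.2% of all genes, with a median of -0.33. *Cyp26b1*, which breaks retinoic acid down, was at 4.55 and 10.8 CPM in WT libraries against 1.99, 2.47 and 2.18 CPM in *Bbs5-/-* libraries (log2 fold change -1.80 ± 0.35, adjusted p = 0.0876; -1.04 without E3). The enzymes that make retinoic acid, *Aldh1a1* at 52.4 and 33.5 against 17.997, 19.5 and 21.9 CPM (log2 fold change -1.12 ± 0.20) and *Aldh1a2* at 10.8 and 19.9 against 5.37, 7.95 and 5.37 CPM (log2 fold change -1.30 ± 0.31; -0.79 without E3), and the binding protein *Crabp1* at 16.99 and 17.9 against 12.5, 9.14 and 5.93 CPM were lower as well. The list's sum, 1313 and 891 CPM in WT against 809, 776 and 809 CPM in *Bbs5-/-*, includes *Ttr*, which sets E1 apart.

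**Figure D1:**
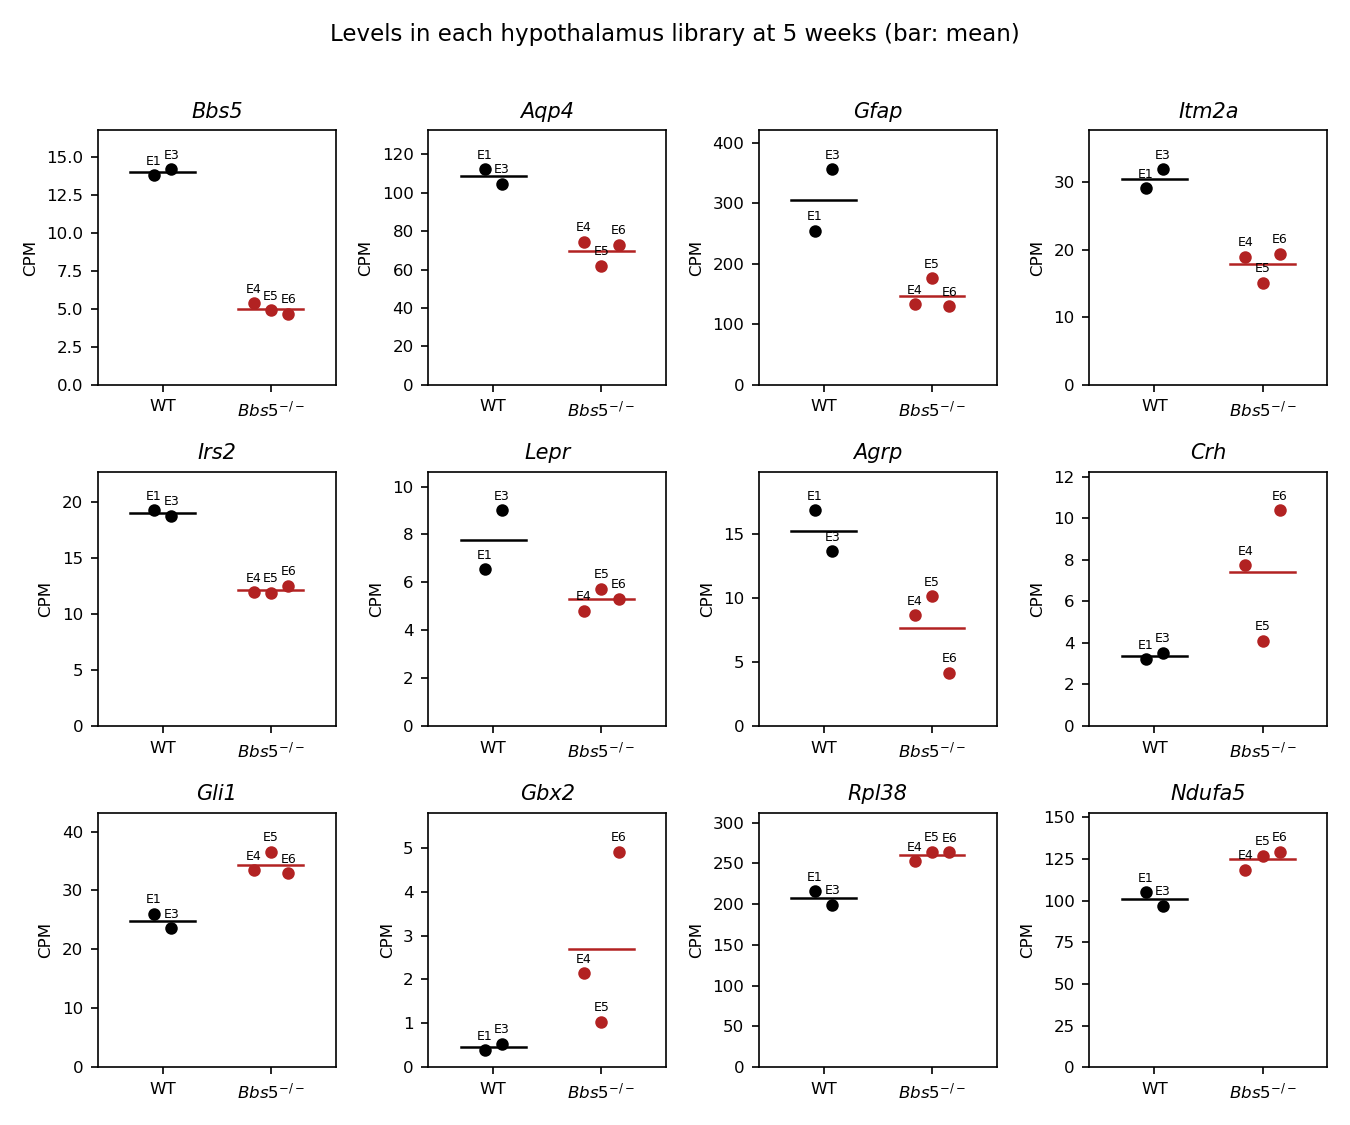
Level in CPM (vertical axes, from 0) of 12 genes in the 2 WT and 3 *Bbs5-/-* libraries at 5 weeks, 1 point per library, with a bar at the mean of each genotype. In every panel the 3 *Bbs5-/-* points lie on one side of both WT points, and *Bbs5* is the 1 gene of the 12 past an adjusted p of 0.05. The rules by which genes were named favored such separation, so it is not a result of its own. Among all genes tested, 17.7% lay above and 18.2% below both WT libraries.

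Endothelial genes were lower as a group, and pericyte genes were divided. All 20 endothelial genes were lower, 12 without overlap, against 18.2% of all genes, with a median of -0.28. *Itm2a* was at 29.1 and 31.9 CPM in WT libraries against 18.9, 15.1 and 19.4 CPM in *Bbs5-/-* libraries (log2 fold change -0.78 ± 0.12, adjusted p = 0.0583). *Vwf*, von Willebrand factor, was at 9.55 and 10.3 against 6.11, 5.04 and 6.38 CPM, *Kdr*, the main receptor of vascular endothelial growth factor, at 12.3 and 10.98 against 7.90, 7.36 and 7.85 CPM, and *Cdh5*, the cadherin of endothelial junctions, at 23.1 and 23.4 against 15.8, 15.02 and 17.9 CPM. Their log2 fold changes were -0.76 ± 0.15, -0.60 ± 0.13 and -0.51 ± 0.10. The list's sum was 1186 and 1169.8 CPM in WT against 1094, 1026 and 1129.9 CPM in *Bbs5-/-*, 55.1% of it from *Bsg*, which neurons and glia also express. Pericyte and smooth muscle genes had 6 of 15 higher and 9 lower, 5 of the latter below both WT libraries. *Rgs5*, a regulator of G protein signaling that marks pericytes, was at 9.44 and 10.7 CPM in WT libraries against 6.11, 4.30 and 6.08 CPM in *Bbs5-/-* libraries (log2 fold change -0.87 ± 0.18), *Vtn*, vitronectin, at 115 and 146 against 85.6, 83.7 and 91.4 CPM (log2 fold change -0.59 ± 0.095), and *Tagln*, transgelin, at 13.2 and 15.2 against 6.76, 8.00 and 10.9 CPM. Their median of -0.23 was -0.072 without E3 and -0.14 without E4, and their sum, led by *Vtn*, was 330.1 and 377 CPM in WT against 275, 281 and 312 CPM in *Bbs5-/-*. Among genes of blood cells, 2 of 5 tested lay above both WT libraries, against 17.7% of all genes, 0 of them with an unadjusted p under 0.05 (edgeR). The alpha globin *Hba-a1* was at 264 and 174 CPM in WT libraries against 287, 309 and 325 CPM in *Bbs5-/-* libraries (log2 fold change 0.49 ± 0.19, 0.83 without E1 and 0.21 without E3), though globin genes have close copies between which reads can be split.

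Oligodendrocyte genes were mostly lower and varied between *Bbs5-/-* libraries. 22 of 24 had a negative log2 fold change and 8 lay below both WT libraries, against 18.2% of all genes. Their median of -0.27 was -0.091 without E5 and -0.46 without E6. Their sum, 9558 and 9412 CPM in WT against 8536, 6764 and 10928 CPM in *Bbs5-/-*, was led by *Mbp* and was highest in *Bbs5-/-* library E6 and lowest in *Bbs5-/-* library E5. *Apod*, apolipoprotein D, was at 183 and 192 CPM in WT libraries against 123, 115 and 144 CPM in *Bbs5-/-* libraries (log2 fold change -0.56 ± 0.088, adjusted p = 0.0674). *Anln* was at 13.7 and 16.2 against 9.50, 7.46 and 11.5 CPM and *Myrf*, the transcription factor of myelination, at 69.5 and 73.5 against 58.5, 45.4 and 61.4 CPM. *Klk6*, a myelin-associated protease, was at 4.66 and 6.34 against 1.89, 2.07 and 4.66 CPM, with E6 at the level of E1. *Olig2*, of the precursors, was at 68.6 and 61.6 against 68.2, 63.9 and 77.3 CPM and overlapped, as did all 14 precursor genes tested. Microglial genes lay on the higher side, 15 of 19, with 5 above and 1 below both WT libraries (against 17.7% and 18.2% of all genes) and a median of 0.17 that was 0.064 without E1 and 0.11 without E6. They summed to 358 and 412 CPM in WT against 433, 405 and 451 CPM in *Bbs5-/-*, which overlapped. *Cx3cr1*, the fractalkine receptor, was at 31.9 and 37.5 CPM in WT libraries against 44.99, 40.4 and 42.8 CPM in *Bbs5-/-* libraries (log2 fold change 0.30 ± 0.090; 0.19 without E1), and *Aif1*, which encodes IBA1, at 3.50 and 2.93 against 4.97, 4.74 and 5.78 CPM (log2 fold change 0.68 ± 0.20).

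Leptomeningeal fibroblast genes had the lowest median of all lists. *Myoc*, myocilin, was at 29.5 and 38.01 CPM in WT libraries against 3.28, 6.72 and 4.86 CPM in *Bbs5-/-* libraries (log2 fold change -2.77 ± 0.27, adjusted p = 0.0586), and the list's median of -0.88 was -0.42 without E3. In the choroid plexus, *Kcnj13*, an inward rectifier of its epithelium, was at 3.77 and 2.83 CPM in WT libraries against 1.19, 1.24 and 1.01 CPM in *Bbs5-/-* libraries (log2 fold change -1.52 ± 0.26, adjusted p = 0.0794), *Kl*, klotho, at 17.8 and 13.2 against 9.84, 10.97 and 8.51 CPM and *Enpp2*, autotaxin, which oligodendrocytes also make, at 189 and 159 against 122, 97.6 and 142 CPM. All 3 were above the *Bbs5-/-* range in E3 as well as in E1, whereas *Ttr* was high in E1 alone and the list's median of -0.49 was 0.14 without E1. Of 16 choroid plexus genes tested, 12 were lower and 4 higher. Below both WT libraries lay 5 and above them 0, against 18.2% and 17.7% of all genes. Transporters of the meninges and choroid plexus were among the genes named by size. *Slc36a2*, a proton-coupled transporter of small amino acids, was at 3.77 and 3.57 CPM in WT libraries against 0.646, 1.24 and 0.760 CPM in *Bbs5-/-* libraries (log2 fold change -2.05 ± 0.30, adjusted p = 0.0583), and the sulfate transporter *Slc13a4* at 13.2 and 32.2 against 5.92, 9.73 and 5.73 CPM.

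**Figure D2:**
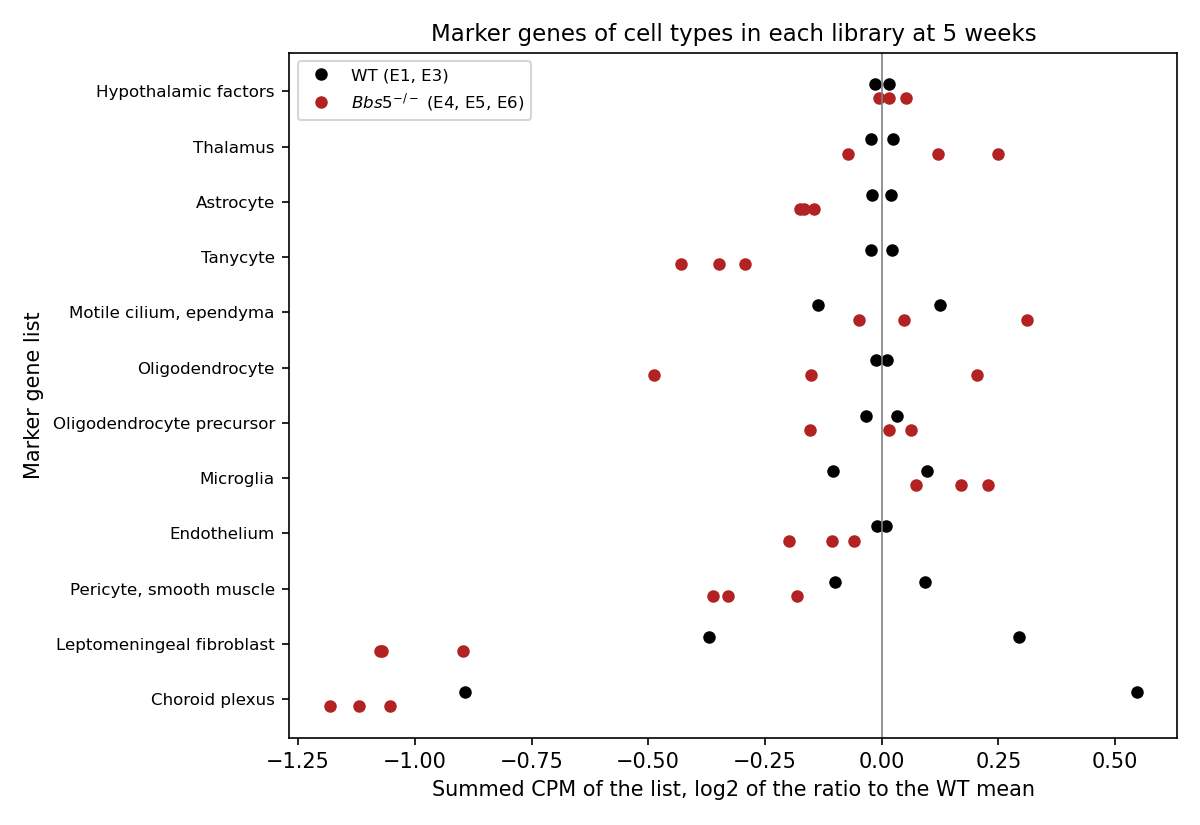
Summed CPM of 12 lists of cell type and region markers in each library at 5 weeks, divided by the mean of the 2 WT libraries (horizontal log2 axis, 1 point per library; 0 is the WT mean). The 3 *Bbs5-/-* points lie left of both WT points for astrocyte, tanycyte, endothelial, pericyte, leptomeningeal and choroid plexus genes, and the WT points themselves are far apart for the leptomeninges and the choroid plexus.

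Chaperone genes leaned lower. Of 33 heat shock and chaperone genes 16 lay below both WT libraries and 3 above, against 18.2% and 17.7% of all genes, with a median of -0.10. Their sum, 11962 and 11347 CPM in WT against 11081, 11258 and 11597 CPM in *Bbs5-/-*, overlapped between the genotypes. *Bag3*, a cochaperone of selective autophagy, was at 17.8 and 12.5 CPM in WT libraries against 7.16, 9.68 and 10.2 CPM in *Bbs5-/-* libraries (log2 fold change -0.75 ± 0.19; -0.47 without E1). Its small heat shock partner *Hspb8* was at 26.3 and 20.9 against 16.4, 17.2 and 13.7 CPM (log2 fold change -0.58 ± 0.13), and *Hspb1* at 17.5 and 16.05 against 13.4, 11.6 and 14.2 CPM. *Hsph1*, a nucleotide exchange factor of HSP70, and *Hspa5*, the HSP70 of the endoplasmic reticulum, were named after their values were seen. They were at 315 and 301 against 264, 238 and 244 CPM and at 426 and 439.9 against 386, 385 and 406 CPM. Targets of the glucocorticoid receptor leaned the same way, 8 of 25 below both WT libraries and 1 above, against 18.2% and 17.7% of all genes. *Pdk4*, a kinase that restrains glucose oxidation, was at 5.66 and 5.76 CPM in WT libraries against 3.93, 3.21 and 4.21 CPM in *Bbs5-/-* libraries, and *Nr3c2*, the mineralocorticoid receptor, at 6.33 and 7.04 against 4.47, 4.59 and 5.52 CPM. *Sgk1*, a kinase that glucocorticoids induce, was named after its values were seen and was at 20.2 and 18.3 against 16.5, 14.1 and 16.4 CPM. Their median of -0.14 was -0.091 without E1 and -0.28 without E3.

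Immediate early genes, which neuronal activity and dissection both induce, set the 2 WT libraries apart. Their sum was 1358 and 906 CPM in WT against 1067, 1013 and 1103 CPM in *Bbs5-/-*, highest in E1 and lowest in E3. Their median of -0.30 was 0.22 without E1 and -0.67 without E3. Genes for antigen presentation and interferon responses had 12 of 40 below and 4 above both WT libraries, against 18.2% and 17.7% of all genes, with a median of -0.092 that was -0.19 without E1 and 0.035 without E3. *Bst2*, tetherin, was at 5.55 and 5.38 CPM in WT libraries against 3.68, 3.26 and 3.75 CPM in *Bbs5-/-* libraries (log2 fold change -0.62 ± 0.18).

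Of all lists, the cytosolic ribosomal proteins had the largest share above WT. Among all genes tested, 17.7% lay above and 18.2% below both WT libraries. 75 of 79 cytosolic ribosomal protein genes were higher, 63 without overlap, 2 were below both WT libraries, and the median log2 fold change was 0.14. They summed to 22974 and 22779.6 CPM in WT against 24449, 25292 and 25947 CPM in *Bbs5-/-*. *Rpl38* was at 216 and 199.6 CPM in WT libraries against 253, 265 and 264 CPM in *Bbs5-/-* libraries (log2 fold change 0.33 ± 0.060, adjusted p = 0.0876), *Rpl35* at 236 and 222 against 277, 274 and 284 CPM and *Rpl21* at 514 and 496 against 570.4, 629 and 626 CPM. Such genes have many processed copies in the genome, among which counting can split reads. For the 77 mitochondrial ribosomal proteins 64 were higher, with a median of 0.12, and *Mrpl52* was at 37.9 and 36.6 against 44.7, 45.9 and 44.7 CPM. The respiratory chain, the complexes of mitochondrial oxidative phosphorylation, had 67 of 81 genes higher, 55 above and 4 below without overlap, with a median of 0.14 and a sum of 12461 and 12084 CPM in WT against 12873, 12799 and 13793 CPM in *Bbs5-/-*. *Ndufa5* of complex I was at 105 and 96.9 against 119, 127 and 129 CPM (log2 fold change 0.31 ± 0.067, adjusted p = 0.0876) and *Ndufa13* at 177 and 167 against 204, 218 and 211 CPM. The most abundant gene of the list, *Atp5a1*, went the other way, at 595 and 624 against 541, 507 and 571 CPM. Genes for RNA processing and nuclear RNA had 12 of 29 above and 2 below, with a median of 0.12 (0.077 without E5). Proteasome subunits had 14 of 31 genes above and 4 below. *Psma4* was at 98.9 and 102 against 115, 116 and 118 CPM. Translation factors lay on both sides, 17 of 40 higher and 23 lower. 9 lay above and 12 below both WT libraries, against 17.7% and 18.2% of all genes. *Eef2*, the elongation factor that moves the ribosome along the messenger RNA, was at 1285 and 1231 CPM in WT libraries against 1076, 994 and 1121 CPM in *Bbs5-/-* libraries (log2 fold change -0.24 ± 0.065).

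The ribosomal, respiratory chain and proteasome genes are mostly short transcripts, and length itself went with the difference. Among 15199 genes matched to GENCODE M21 (94.9% of those tested), split into 3 classes of equal size by the length of their longest transcript, coding ones first, 62.7% of the shortest class were higher in *Bbs5-/-* mice, against 47.1% of the middle and 36.6% of the longest class. The medians were 0.059, -0.013 and -0.052. Of the 79 cytosolic ribosomal protein genes 75 were in the shortest class, as were 74 of the respiratory chain and 56 of the mitochondrial ribosomal genes. With these lists and the proteasome left out, 61.6% of the 4835 remaining genes in that class were higher and 25.1% lay above both WT libraries without overlap, with a median of 0.054. By GC content, 42.1% of the class with the least and 56.8% of the class with the most GC were higher. Of the lists with the largest share below WT, endothelial and tanycyte genes, at median lengths of 3441 and 3632 bases, were longer than the 3098 bases of all matched genes, and astrocyte and leptomeningeal genes, at 2822 and 2434, were shorter. Beyond this comparison, the part of length in the list values was not tested.

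**Figure D3:**
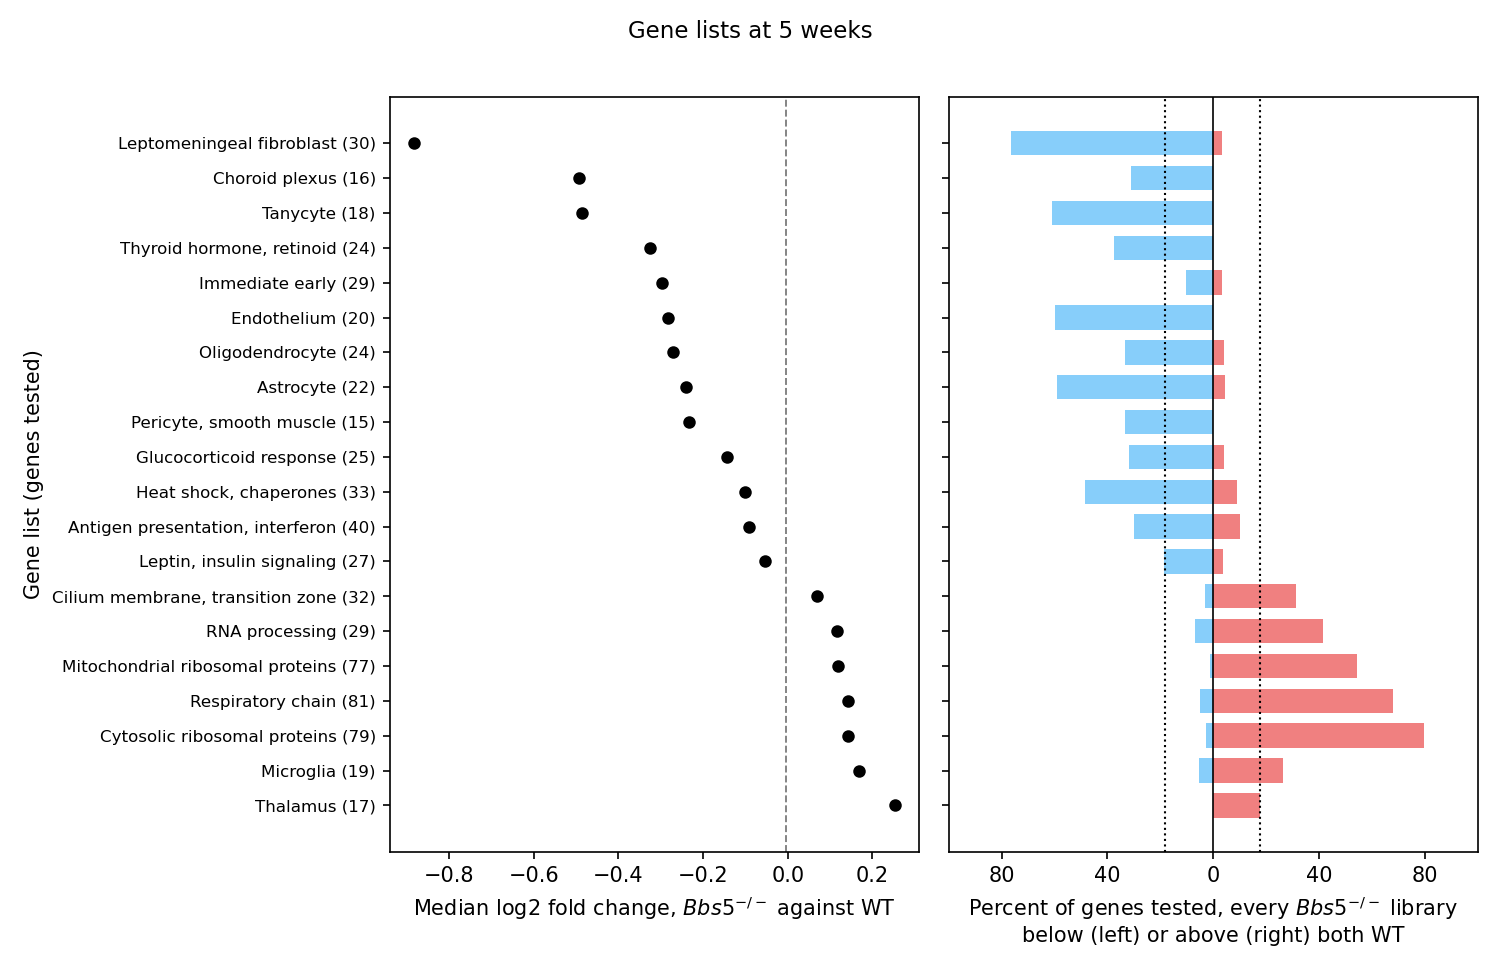
Left, median log2 fold change (*Bbs5-/-* against WT at 5 weeks) of 20 gene lists, with a dashed line at the median of all genes tested. Right, the percent of each list's tested genes with every *Bbs5-/-* library below (bars to the left) or above (bars to the right) both WT libraries, with dotted lines at 18.2% below and 17.7% above for all genes. Leptomeningeal, tanycyte, endothelial and astrocyte genes have the longest bars to the left, cytosolic ribosomal protein and respiratory chain genes the longest to the right, and the medians of choroid plexus and immediate early genes change sign without E1 and that of antigen presentation and interferon without E3.

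Genes of synapses and channels lay on both sides in shares mostly near or under those of all genes. Among 34 genes of vesicle release, 7 lay above and 2 below both WT libraries. *Cplx2*, complexin 2, was at 451 and 601 CPM in WT libraries against 666, 643 and 706 CPM in *Bbs5-/-* libraries, with E1 below the rest, and *Vamp2*, synaptobrevin 2, at 493 and 552 against 465, 431 and 453 CPM. *Slc18a2*, the vesicular monoamine transporter, was at 44.4 and 36.9 against 34.1, 30.4 and 22.7 CPM. Of 44 postsynaptic genes 7 lay above and 10 below. *Grin2d*, an NMDA receptor subunit of interneurons and diencephalon, was at 75.6 and 82.96 against 94.2, 96.2 and 98.9 CPM (log2 fold change 0.28 ± 0.067), and *Gabrb1*, of GABA type A receptors, at 53.7 and 48.5 against 60.3, 70.2 and 63.9 CPM (log2 fold change 0.34 ± 0.084), while *Gabre* was at 16.5 and 22.3 against 13.5, 14.7 and 10.7 CPM. *Cacna1g*, the T-type calcium channel behind burst firing, was at 166 and 157 CPM in WT libraries against 199, 200.3 and 192 CPM in *Bbs5-/-* libraries (log2 fold change 0.29 ± 0.057, adjusted p = 0.0876). Potassium channel genes had 56 of 82 lower, with 16 below both WT libraries, near the share of all genes, and 9 above, under it. *Kcnj3*, a G protein–gated rectifier, was at 7.05 and 6.40 against 3.73, 4.25 and 3.90 CPM (log2 fold change -0.76 ± 0.17), and *Kcnh3* at 3.61 and 3.68 against 6.11, 5.73 and 5.83 CPM.

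Genes of the extracellular matrix went both ways. The connective tissue collagens *Col1a1*, *Col1a2* and *Col3a1* were below both WT libraries in every *Bbs5-/-* library, *Col1a2* at 45.6 and 67.3 CPM in WT libraries against 30.5, 33.2 and 32.8 CPM in *Bbs5-/-* libraries (log2 fold change -0.81 ± 0.16; -0.50 without E3). *Col15a1*, a basement membrane collagen, was above, at 13.6 and 18.6 against 25.4, 32.01 and 28.9 CPM (log2 fold change 0.83 ± 0.15, adjusted p = 0.0876). *Col16a1*, *Col18a1* and *Col11a1*, named after their values were seen, were above as well, at 90.04 and 79.5 against 108, 114 and 103, at 23.8 and 27.1 against 36.4, 31.3 and 37.8 and at 58.6 and 55.98 against 67.2, 75.5 and 70.4 CPM. Of 43 collagen genes 10 lay above and 7 below, near the shares of all genes. Integrins and laminins leaned lower, 15 of 36 below and 6 above both WT libraries, against 18.2% and 17.7% of all genes. *Lamc3* was at 6.83 and 9.81 against 4.42, 3.95 and 4.05 CPM (log2 fold change -1.01 ± 0.19).

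Of the genes named by p, 10 in all with *Bbs5*, those not described above follow. *Lhfp*, of a family of tetraspan membrane proteins, was at 29.6 and 28.5 CPM in WT libraries against 17.6, 18.3 and 18.9 CPM in *Bbs5-/-* libraries (log2 fold change -0.67 ± 0.086). *Sepp1*, selenoprotein P, which delivers selenium to the brain, was at 226 and 230.3 against 168, 164 and 177 CPM (log2 fold change -0.43 ± 0.058), and *Serping1*, the inhibitor of complement C1, at 16.7 and 22.7 against 6.71, 9.29 and 8.06 CPM (log2 fold change -1.30 ± 0.17). *Sema3b*, a secreted semaphorin, was at 8.99 and 9.92 against 2.83, 4.35 and 3.80 CPM (log2 fold change -1.37 ± 0.19), and *Slc41a1*, a magnesium transporter, at 62.3 and 65.6 against 46.5, 47.9 and 44.8 CPM (log2 fold change -0.46 ± 0.068). In the other direction, *Otof*, otoferlin, a calcium sensor for vesicle fusion, was at 60.2 and 59.98 CPM in WT libraries against 80.4, 81.2 and 84.7 CPM in *Bbs5-/-* libraries (log2 fold change 0.45 ± 0.064), and the predicted gene *Gm20594* at 1110.3 and 1120.4 against 1483, 1437 and 1528 CPM (log2 fold change 0.41 ± 0.057). These genes were chosen by p, so the separation of their genotypes follows from the choice and is not a further result.

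The largest positive differences besides those above fell on low counts. *Hp*, haptoglobin, rested on 6 and 6 counts in WT and 18, 48 and 37 in *Bbs5-/-* libraries (log2 fold change 2.37 ± 0.52), and *Chrdl2*, a secreted antagonist of bone morphogenetic proteins, on 5 and 10 against 25, 33 and 30 counts (log2 fold change 1.83 ± 0.41). *Gabrr2*, a GABA receptor subunit, rested on 9 and 13 against 20, 34 and 27 counts, and *Ppp3r2*, a calcineurin subunit, on 11 and 12 against 24, 41 and 22. *Rnaset2b*, *Psme2b* and *Tgtp1* have near-identical copies, so their log2 fold changes of 1.57, 1.56 and 1.23 are uncertain. That of *Rnaset2b* was 0.91 without E1 and 2.89 without E3, and that of *Tgtp1* 2.32 and 0.60. *Nrp* and 3 genes with systematic names completed the 15. On the lower side the 15 held, among others, *Ogn*, *Fmod* and *Prg4*, proteoglycans of connective tissue, *Igfbp2*, which binds insulin-like growth factors, *Cd44* and *Itih2*, which bind hyaluronan, *Cyp1b1* and *Hcar1*, the lactate receptor. *Igfbp2* was at 52.02 and 74.1 CPM in WT libraries against 16.5, 22.8 and 17.4 CPM in *Bbs5-/-* libraries (log2 fold change -1.74 ± 0.20, adjusted p = 0.0876), and *Cd44* at 21.5 and 8.32 against 4.42, 4.79 and 5.42 CPM, with E1 far above the rest. *Hcar1* was at 1.05 and 2.83 against 0.447, 0.939 and 0.811 CPM. *Gm5936*, named after its values were seen, had 27 and 20 counts in WT and 0, 0 and 0 in *Bbs5-/-* libraries, which allows up to 0.151 CPM in E6.

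The 12-week libraries were compared only to place these values. No gene passed the test of the genotype difference at 5 weeks against that at 12 weeks (16469 genes tested, 0 called, 0%, edgeR; 647 with an unadjusted p under 0.05), and leaving out WT library B3, with 1 WT library left at 12 weeks, gave 113 genes and leaving out B5, labelled *Bbs5-/-*, gave 1, *Bbs4*. At 12 weeks 8.21% of genes lay above and 7.05% below both WT libraries in every library labelled *Bbs5-/-*. Of 15880 genes tested at both ages, 251 were lower without overlap at each, 8.63% of those lower at 5 weeks and 22.4% of those lower at 12, while 168 were lower at 5 and higher at 12 weeks, 5.78% and 12.9%. For the genes higher at 5 weeks, 224 were higher at both ages, 8.01% and 17.3%, and 71 were lower at 12 weeks, 2.54% and 6.32%. *Gm5936*, which had the smallest p of this test, was at 0 and 0 CPM (B1, B3) against 1.68, 1.00 and 0.675 CPM (B4, B5, B6) at 12 weeks, the opposite of its side at 5 weeks (difference of log2 fold changes -15.35 ± 1.55, adjusted p = 0.131, a size that rests on values of 0). *Prg4*, at 8.99 and 15.9 against 2.98, 5.83 and 2.99 CPM at 5 weeks, was at 1.22 and 1.76 CPM (B1, B3) against 6.15, 18.2 and 8.68 CPM (B4, B5, B6) at 12 weeks, on the opposite side (difference of log2 fold changes -4.53 ± 0.68, adjusted p = 0.283). *Slc36a2* (difference -2.66 ± 0.47) and *Serping1* (difference -2.06 ± 0.45) differed in the same sense, with adjusted p values of 0.409 and 0.994. *Crh* at 12 weeks was at 1.26 and 1.55 CPM (B1, B3) against 0.841, 0.562 and 0.540 CPM (B4, B5, B6), lower rather than higher (difference 2.26 ± 0.55, adjusted p = 0.994). *Bbs5* had a difference of -1.44 ± 0.25 (adjusted p = 0.409). Among the lists, the median at 12 weeks was -0.024 for endothelium, 0.12 for astrocytes, 0.20 for tanycytes and 0.96 for leptomeningeal fibroblasts, the last 3 opposite in sign to 5 weeks, with 0, 2, 3 and 16 genes above both WT libraries. It was 0.22 for cytosolic ribosomal proteins and 0.16 for the respiratory chain, but 2 of 79 and 3 of 81 genes lay above both WT libraries, shares under that of all genes, and both sums were highest in B4 and overlapped. Age, any batch that follows age and the identity of the 12-week libraries cannot be told apart.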

How the data were processed

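RNA of the hypothalamus was sequenced in 10 libraries, of which the 5 labelled with an age of 5 weeks were compared. The values are expected counts per gene that the authors deposited in 1 table, whose name gives RSEM as the counting tool, whereas the methods name featureCounts. The submitters' notes name TopHat, Bowtie and SAMtools without versions and the human build GRCh38, while the methods name both a KAPA kit and a directional NEBNext kit for the libraries and the labels the latter alone, so counting tool, aligner, build and strandedness of the counts are uncertain. The 2 other deposited tables hold TMM-scaled values beside the authors' fold changes and p-values and were not used here. 27 symbols turned into dates by a spreadsheet were kept as they stood.

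Expected counts were rounded to whole numbers. edgeR 4.0.16 with limma 3.58.1 in R 4.3.3 was run with filterByExpr by genotype, TMM scaling and the robust quasi-likelihood test, and p-values were adjusted over all genes tested by Benjamini-Hochberg. CPM values are TMM-scaled. The SE of a log2 fold change is its size divided by the square root of the F statistic. P-values measure the spread between these mice. As alternatives, DESeq2 1.42.0 was run with its likelihood ratio test, and edgeR with library size only, with RLE size factors, without the filter, with a count of at least 50 required in every library of 1 genotype, without robust estimation, with all 4 groups in 1 fit, with each library left out in turn and, chosen after seeing the data, with *Rn45s* left out before scaling. The difference between ages was tested as an interaction over all 10 libraries. The fits were also run on simulated data, and the outcome is not reported here.

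Named genes were *Bbs5*, the 15 largest positive and 15 largest negative log2 fold changes among genes with no overlap, an unadjusted p under 0.05 and a mean of at least 1 CPM, up to 4 members of each list by size or else abundance, the BBSome subunits, genes within 1 Mb of *Bbs5* and the 10 smallest p-values. *Nnt*, *Rn45s*, the most abundant members *Apoe*, *Atp5a1*, *Bsg*, *Mbp*, *Prdx6* and *Ptgds* and the genes marked so in the text were chosen after their values were seen. Some genes that these rules name are not reported here. The members and the gene lists, 39 written out and 16 by symbol pattern, were chosen with earlier results of these data known. Neighbours of *Bbs5* came from RefSeq (GRCm38.p6), and exons, lengths and GC content from GENCODE M21. The floor of 3 counts covers counting error only.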

Additional observations from a re-analysis of the deposited data

How the results depend on the processing

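The count past the threshold in edgeR's test was 1 with RLE size factors, with library size only, with the stricter filter and with *Rn45s* left out. It was 3 without robust estimation (*Bbs5*, *Igfbp2* and *Myoc*), 263 without the filter and 0 with all 4 groups in 1 fit (523 with an unadjusted p under 0.05), and 392 with DESeq2. Over the libraries left out in turn it ran from 1 to 160, with the highest counts where 1 WT library was left and the spread came from *Bbs5-/-* libraries alone. The log2 fold change of *Bbs5* was -1.49 (adjusted p = 0.0536) with all 4 groups in 1 fit and ran from -1.55 (without E4, adjusted p = 0.0517) to -1.44 with libraries left out. The adjusted p ranged from 2.71e-11 to 0.0536 over all alternatives. Genes without overlap numbered 3639 to 5089 above and 3698 to 5135 below with libraries left out, where fewer values have to be separated. Those that also had an unadjusted p under 0.05 numbered 162 higher and 333 lower with all 4 groups in 1 fit. The interaction gave 1 gene without the filter and from 0 to 113 with libraries left out. Of 150 named genes other than *Bbs5* and *Atp5a1*, 8 changed sign under any alternative. *Bbs7* was at -0.0025 with library size only. With libraries left out, log2 fold changes ran from -0.10 to 0.037 for *Apoe*, from -0.11 to 0.029 for *Bbs1*, from -0.054 to 0.063 for *Bbs7*, from -0.063 to 0.16 for *Bbs9*, from -0.028 to 0.023 for *Bsg*, from -0.21 to 0.15 for *Mbp*, from -0.36 to 0.10 for *Rn45s* and from -7.25 to 0.27 for *Ttr*. Of 20 list medians, 3 changed sign, those of choroid plexus, immediate early and antigen presentation and interferon genes, each without 1 WT library. The cause was not tested. No paired analysis was possible because the genotypes share no replicate numbers. With 2 WT libraries that differ from each other in choroid plexus and meningeal RNA, the spread of WT is poorly known, and a gene near the floor of 3 counts can differ severalfold by counting error alone.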
